A study of Mus musculus with 4 samples.

Results

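The Schlafen family was followed across primary mouse pancreatic ductal cells in which Hhex, a homeodomain regulator needed when liver and pancreas form, was targeted. Its 7 members here, Slfn1, Slfn2, Slfn3, Slfn4, Slfn5, Slfn8 and Slfn9, were picked by symbol out of 22869 symbols measured by RNA sequencing. Where a symbol had several RefSeq transcripts, the row with the highest mean count over the 4 libraries stood for the gene. The family was proposed because the difference in Slfn2 was already known from these libraries, so the values of Slfn2 describe that choice and are no independent support for it.

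The libraries labelled knockout (n = 2) came from C57BL/6 mice that carried floxed Hhex alleles and Sox9CreER, a tamoxifen-inducible Cre driven from Sox9. Control libraries (n = 2) came from littermates with the same floxed alleles (HhexL/L) and without the Cre. The mice were not induced in life: cultured cells of both groups received 500 nM 4-hydroxytamoxifen, the active tamoxifen metabolite, for 4 days. No group carried the Cre without floxed alleles, so an effect of the Cre cannot be told apart from one of Hhex loss.

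Schlafen proteins share an N-terminal core domain that binds, and in several members cleaves, transfer RNA and other structured RNA. Mouse Schlafen genes lie in a cluster on chromosome 11 and are best known from lymphocytes and myeloid cells, where several respond to interferon. Short members (Slfn1 and Slfn2) hold little beyond the core, Slfn3 and Slfn4 are of intermediate length, and the long members (Slfn5, Slfn8 and Slfn9) add a helicase-like C-terminal part and can enter the nucleus.

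Promoter sequences of all 7 members were present in the RefSeq table of build GRCm38.p6. Those of the most abundant member and of the 3 long members are printed because they differ in a motif of interferon-responsive genes. Each line gives the 250 bases before the transcript start, 5′ to 3′ on the gene's strand, and capitals mark a match on either strand to GAAA, 2 bases of any kind and GAAA, the core of the interferon-stimulated response element (ISRE). The deposited tables were made on mm9, and no position was converted between the builds.
Slfn2, chr11:83064862-83065111, plus strand: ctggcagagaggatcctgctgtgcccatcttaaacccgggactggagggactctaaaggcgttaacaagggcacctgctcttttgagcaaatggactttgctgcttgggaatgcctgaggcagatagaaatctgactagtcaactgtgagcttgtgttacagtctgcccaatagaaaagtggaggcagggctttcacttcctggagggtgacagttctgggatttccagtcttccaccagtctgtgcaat
Slfn5, chr11:82951852-82952101, plus strand: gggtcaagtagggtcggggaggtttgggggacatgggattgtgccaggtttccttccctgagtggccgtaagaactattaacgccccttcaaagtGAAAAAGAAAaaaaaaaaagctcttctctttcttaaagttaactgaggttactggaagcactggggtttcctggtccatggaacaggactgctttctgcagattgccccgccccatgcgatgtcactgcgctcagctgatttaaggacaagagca
Slfn8, chr11:83020811-83021060, minus strand: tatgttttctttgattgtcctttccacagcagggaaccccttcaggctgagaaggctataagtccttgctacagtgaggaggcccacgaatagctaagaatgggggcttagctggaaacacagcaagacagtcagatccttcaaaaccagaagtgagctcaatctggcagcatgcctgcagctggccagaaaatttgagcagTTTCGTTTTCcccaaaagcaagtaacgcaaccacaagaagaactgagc
Slfn9, chr11:82991831-82992080, minus strand: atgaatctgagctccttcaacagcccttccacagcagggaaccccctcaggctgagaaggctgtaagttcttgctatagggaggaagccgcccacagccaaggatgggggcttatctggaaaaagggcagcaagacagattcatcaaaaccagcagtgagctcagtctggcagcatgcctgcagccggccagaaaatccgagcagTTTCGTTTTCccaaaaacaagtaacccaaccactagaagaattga

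The ISRE-like letters occurred in the promoters of 3 of the 7 members, Slfn5, Slfn8 and Slfn9, and in 2.98% of the 32851 promoters of the same length. In Slfn8 and Slfn9 the match began 48 and 45 bases before the start and had the same 10 letters in both. RefSeq also gives Slfn8 a second start, from which the same match lies 136 bases away, and the start shown is that of the transcript used for the counts. Slfn2 had no match to these letters in its window. Over the aligned windows, Slfn8 and Slfn9 were 80.2% identical, against 45.5% to 53.4% in the other 20 pairs of members. The STAT-type motif TTCNNNGAA was in 0 members and in 7.02% of promoters, and the homeodomain core TAATTA in 0 members and 4.84% of promoters. The shorter homeodomain core ATTAA was in 1 member, Slfn5, and in 24.93% of promoters. The AP-1 motif TGANTCA was in 1 member, Slfn4, and in 6.75% of promoters. All motifs were read on both strands, and their matches in these windows did not overlap.

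The libraries labelled knockout held 39582625 and 30835777 deposited counts, and the controls 25513289 and 25257778. Hhex RNA was no lower under the knockout label. On the CPM scale, counts per 1000000 of the TMM-scaled library size, it stood at 23.6 and 39.0 under that label, against 24.8 and 17.7 in the controls (edgeR adjusted p = 0.742). The label is thus not borne out by the Hhex count, although the deleted exons are not stated, and RNA from the others can still give reads. Knockout replicate 2 was the only library with high Xist and almost no Y-linked RNA, at 304 CPM of Xist and 0.548 CPM of Ddx3y, so the sex of the source animals was mixed in that group. Ductal keratins were abundant in every library, with Krt19 between 553 and 1014 CPM. In bulk RNA, fewer cells of a type and less RNA per cell cannot be told apart.

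Slfn2 was by far the main Schlafen transcript of these cells, and it was lower in both libraries labelled knockout. Slfn2, which binds transfer RNA and keeps T cells and monocytes quiescent in mice, had 1336 and 651 counts in the libraries labelled knockout, against 3021 and 2661 counts in the controls. On the CPM scale this came to 35.8 and 21.0 in the libraries labelled knockout, against 110.1 and 108 in the controls. Both libraries labelled knockout lay far below both controls, and they also differed from each other by more than counting error, with 95% Poisson intervals of 33.9 to 37.8 and 19.4 to 22.7 CPM. The controls lay close together, with intervals of 106 to 114 and 104 to 112 CPM.

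The group means of Slfn2 were 28.4 ± 10.5 CPM in the libraries labelled knockout and 109 ± 1.54 CPM in the controls (SD, n = 2 each). The log2 fold change was -1.94 ± 0.25 (SE), a 3.83-fold lower level with a 95% interval of 2.55-fold to 5.77-fold. In edgeR's quasi-likelihood test the adjusted p was 0.0521 over 20949 transcripts, just above the threshold of 0.05, and Slfn2 ranked at place 41 by p. By size of the fold change, Slfn2 was the 17th most negative of 10195 symbols with a mean of at least 5 CPM. Of the 7 members, edgeR called 0, against a background of 0.177% of all transcripts tested, with 0.129% called higher and 0.0477% called lower. The count at an unadjusted p under 0.05 in this fit was 1 member, Slfn2. DESeq2 and limma-trend on log2(RPKM + 1) each called 1 member, again Slfn2. Over all transcripts, 7.47% had an unadjusted p under 0.05, DESeq2 called 1.14% higher and 0.528% lower of those it gave an adjusted p, and limma-trend called 0.597% higher and 0.310% lower.

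The call on Slfn2 depended on the processing, while its size did not. With all 4 libraries kept, 7 of 14 alternatives called it, its adjusted p ran from 2.122e-10 to 0.1229, and its log2 fold change stayed between -2.03 and -1.84. Leaving out knockout replicate 1 gave a log2 fold change of -2.40 (edgeR adjusted p = 8.342e-36), and leaving out knockout replicate 2 gave -1.62 (edgeR adjusted p = 1.288e-18). Leaving out control replicate 1 gave -1.93 (edgeR adjusted p = 0.0703) and leaving out control replicate 2 gave -1.91 (edgeR adjusted p = 0.0662), so Slfn2 was not called in either. In each of those 4 fits a single library stands for its group and is assumed to vary like the other group.

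**Figure D1:**
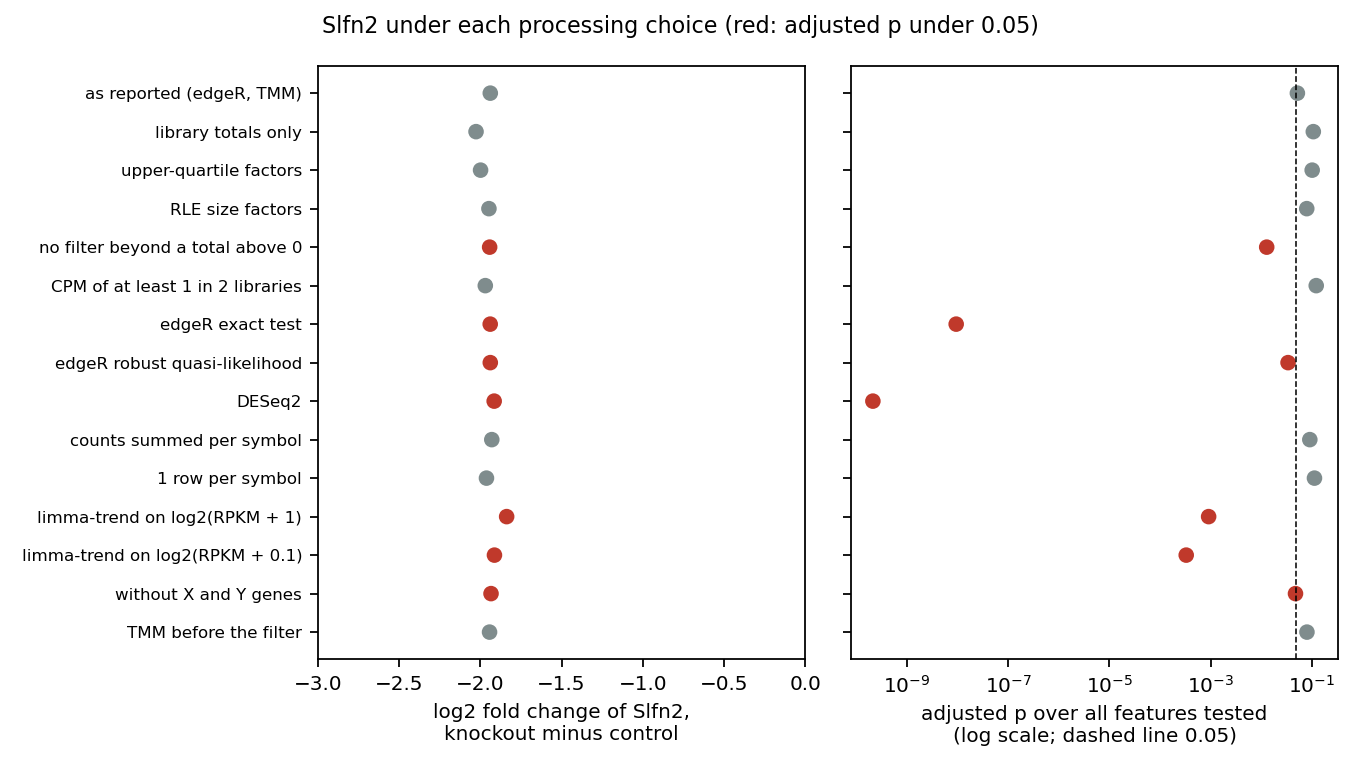
Slfn2 under each processing choice that keeps all 4 libraries. The left panel shows the log2 fold change, knockout minus control, and the right panel the adjusted p on a log scale, with a dashed line at 0.05 and red for values under it. The fold changes sit between -2.03 and -1.84, while the adjusted p falls on both sides of the line.

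Per length of transcript, the order of the members was led by Slfn2 in every library. The deposited RPKM (reads scaled by transcript length and library size) of Slfn2 was 17.0 and 9.50 in the libraries labelled knockout, against 46.8 and 49.6 in the controls. It placed Slfn2 at rank 3166 and 4708 of 22869 symbols in the libraries labelled knockout, against rank 738 and 849 in the controls. Slfn2 made up 92.2% and 83.6% of the summed RPKM of the 7 members in the libraries labelled knockout, against 95.2% and 96.0% in the controls. The summed RPKM of the other 6 members was 1.45 and 1.86 in the libraries labelled knockout, against 2.37 and 2.06 in the controls.

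**Figure D2:**
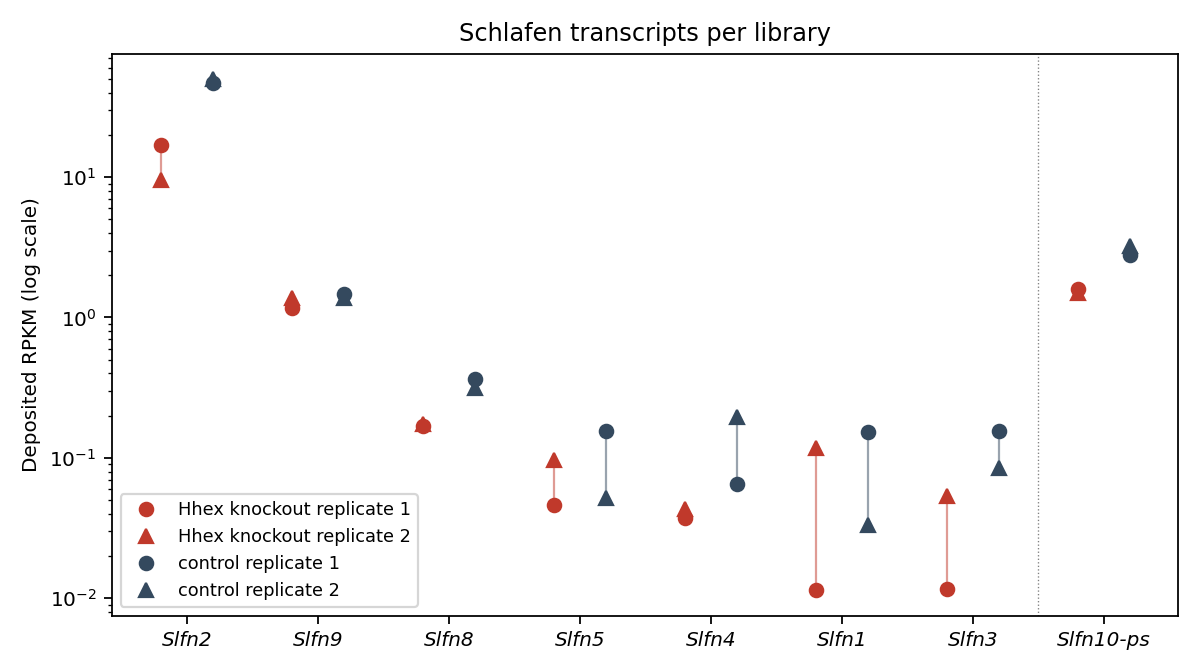
Deposited RPKM (log axis) of each member in each library, with Slfn10-ps, a neighbouring Schlafen gene outside the 7, at the right. Red symbols are libraries labelled knockout and dark symbols controls, circles are replicate 1, triangles replicate 2, and a line joins the 2 libraries of a group. Slfn2 lies between 9.50 and 49.6 RPKM in all libraries, and every other member lies under 1.5 RPKM.

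Slfn9 came next in level and differed little between the groups. Its RPKM was 1.17 and 1.37 in the libraries labelled knockout, against 1.47 and 1.38 in the controls, from 171 to 220 counts per library. The groups were adjacent rather than apart on this scale, and on the CPM scale they overlapped, at 5.71 and 7.03 against 8.02 and 6.93. The log2 fold change of Slfn9 was -0.23, and its 95% interval ran between -0.76 and 0.30 (edgeR adjusted p = 0.926). That interval does not overlap the one of Slfn2, which ran from -2.53 to -1.35, but the difference between both genes was not tested. The RPKM of Slfn2 was 14.5 and 6.92 times that of Slfn9 in the libraries labelled knockout, against 31.8 and 36.1 times in the controls.

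Slfn8, another long member, stood below 1 RPKM in every library. Mouse Slfn8 has been studied in autoimmune inflammation of the brain, where its loss lessens disease in mice. It had 32 and 29 counts in the libraries labelled knockout, against 57 and 41 counts in the controls. This came to 0.857 and 0.935 CPM in the libraries labelled knockout, against 2.08 and 1.66 CPM in the controls, and the groups did not overlap. The log2 fold change was -1.06, and its 95% interval reached from -2.14 up to 0.02 (edgeR adjusted p = 0.674). The rule for picking rows left out a second Slfn8 transcript, NM_001167743, with 29 and 25 counts against 49 and 35. In counts it lies just under the row used (NM_181545) in each library. In RPKM it lies above that row, at 0.200 and 0.197 against 0.410 and 0.352, where the row used has 0.169 and 0.176 against 0.367 and 0.317. Relative to Slfn9, the RPKM of the row used was also lower under the knockout label. It stood at 0.144 and 0.128 of the Slfn9 RPKM in the libraries labelled knockout, against 0.249 and 0.231 in the controls.

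The long member Slfn5, a nuclear protein that in human cells represses transcription of some viral and interferon-induced genes, was near the limit of detection. It had 13 and 24 counts in the libraries labelled knockout, against 36 and 10 counts in the controls, and the groups overlapped. Its log2 fold change was -0.63, its 95% interval reached from -2.52 up to 1.27 (edgeR adjusted p = 0.954), and it turned to 0.45 without control replicate 1.

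Slfn4, a gene of interferon-stimulated macrophages and other myeloid cells, had 7 and 7 counts in the libraries labelled knockout, against 10 and 25 counts in the controls. Its CPM was 0.188 and 0.226 in the libraries labelled knockout, against 0.364 and 1.01 in the controls. The groups did not overlap, but control replicate 2 held most of the difference. The log2 fold change was -1.72, and its 95% interval reached from -3.79 up to 0.36 (edgeR adjusted p = 0.764), and it was -0.78 without control replicate 2.

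Slfn1 and Slfn3 reached the minimum count in control replicate 1 alone, too few libraries for the filter, and were not tested in the fit used here. With no filter their log2 fold changes were -0.67 (edgeR adjusted p = 0.990) for Slfn1 and -1.96 (edgeR adjusted p = 0.983) for Slfn3. Slfn1, whose forced expression slows the growth of T cells, had 1 and 9 counts in the libraries labelled knockout, against 11 and 2 counts in the controls. No order between the groups can be read from these counts. Slfn3, studied for its part in the maturation of gut epithelium in rodents, had 1 and 4 counts in the libraries labelled knockout, against 11 and 5 counts in the controls. The groups of Slfn3 did not overlap in CPM, at 0.0268 and 0.129 against 0.401 and 0.203, but the 95% Poisson intervals of knockout replicate 2 (0.0352 to 0.330) and control replicate 2 (0.0658 to 0.473) did. Intervals of this kind cover counting error only.

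Below Slfn8 the members could not be ranked. In the libraries labelled knockout, mean RPKM was 0.0716 for Slfn5, 0.0645 for Slfn1, 0.0402 for Slfn4 and 0.0325 for Slfn3. In the controls it was 0.103 for Slfn5, 0.0931 for Slfn1, 0.130 for Slfn4 and 0.121 for Slfn3. In the controls the ranges of these 4 members overlapped, and the order of their means changed between the groups. Groups that did not overlap, with lower CPM in the libraries labelled knockout, were found in the tested members Slfn2, Slfn4 and Slfn8. Among all transcripts tested 17.0% had such groups. Slfn3, which was not tested and so is outside that share, had such groups too. The number of such members is a description and no support. Slfn2 was the reason for choosing the family, and Slfn4 reached the minimum count of 10 in the controls alone. As a description, since the minimum count can be met through 1 group alone, the 5 tested members all had negative fold changes, with a median of -1.06, while the median of all transcripts tested was -0.01 and 51.24% of them were negative.

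Reads shared between close copies bear on some of these values. Windows of 50 bases were compared between GENCODE transcripts (release M21), since neither read length nor the treatment of reads with several matches is given in the sources used here. Of the windows of Slfn2, 4.27% also occurred in another gene, all of them in Slfn4. Shared windows made up 23.66% of Slfn3, 15.4% of Slfn8, 11.85% of Slfn9, 11.59% of Slfn4 and 0.61% of Slfn1. Slfn3 shared most with Slfn4 (14.26% of its windows), and Slfn8 with Slfn10-ps (10.68%) and Slfn9 (9.82%), so the values of those copies are uncertain as separate genes. In Slfn5, 11.8% of windows were shared, 7.88% with Slfn5os, an antisense RNA at the same locus. RefSeq also lists the non-coding RNA Gm20234 as overlapping Slfn2 and Gm51911 as overlapping Slfn1. These partners are not among the symbols used here, and the TruSeq kit named in the labels does not mark strand, so their reads cannot be told apart from those of the Schlafen genes.

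A further 3 symbols with a Schlafen name were in the tables, of which Slfn10-ps, annotated as a pseudogene, was the most abundant. It had 261 and 215 counts in the libraries labelled knockout, against 376 and 365 counts in the controls. Its CPM was 6.99 and 6.94 in the libraries labelled knockout, against 13.7 and 14.8 in the controls, and the groups lay apart with little spread inside each. The log2 fold change was -1.03 ± 0.18 (SE), with a 95% interval of -1.46 to -0.61. Slfn10-ps missed the threshold in edgeR (adjusted p = 0.135) and was called by DESeq2. Slfn14-ps had 9 and 8 counts in the libraries labelled knockout, against 22 and 4 counts in the controls. Slfnl1, a Schlafen-like gene outside the cluster, had 7 and 9 counts in the libraries labelled knockout, against 3 and 0 counts in the controls.

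In the gene order of chromosome 11, the tested Schlafen genes had negative fold changes from Slfn5 at one end to Slfn4 near the other. Their order was Slfn5, Slfn9, Slfn8, Slfn10-ps, Slfn2, Slfn1, Slfn4, Slfn3 and Slfn14-ps, with AI662270 between the last of these. On the side of Slfn5, the neighbours had log2 fold changes of -0.85 (Unc45b, a myosin chaperone gene), -0.34 (Nle1), -0.60 (Fndc8), 0.17 (Rad51l3, a homologous recombination gene) and -0.09 (Rffl, a ubiquitin ligase gene). On the other side, they were -0.08 (AA465934), 0.05 (AI450353), -0.46 (Snord7) and 0.45 (Ap2b1, a clathrin adaptor gene). None of these 9 neighbours was called by edgeR, and the interval of Ap2b1 alone excluded 0, with an unadjusted p of 0.0222 and CPM of 218 and 215 in the libraries labelled knockout, against 150.0 and 167 in the controls. Whether the cluster differs from its neighbours was not tested.

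**Figure D3:**
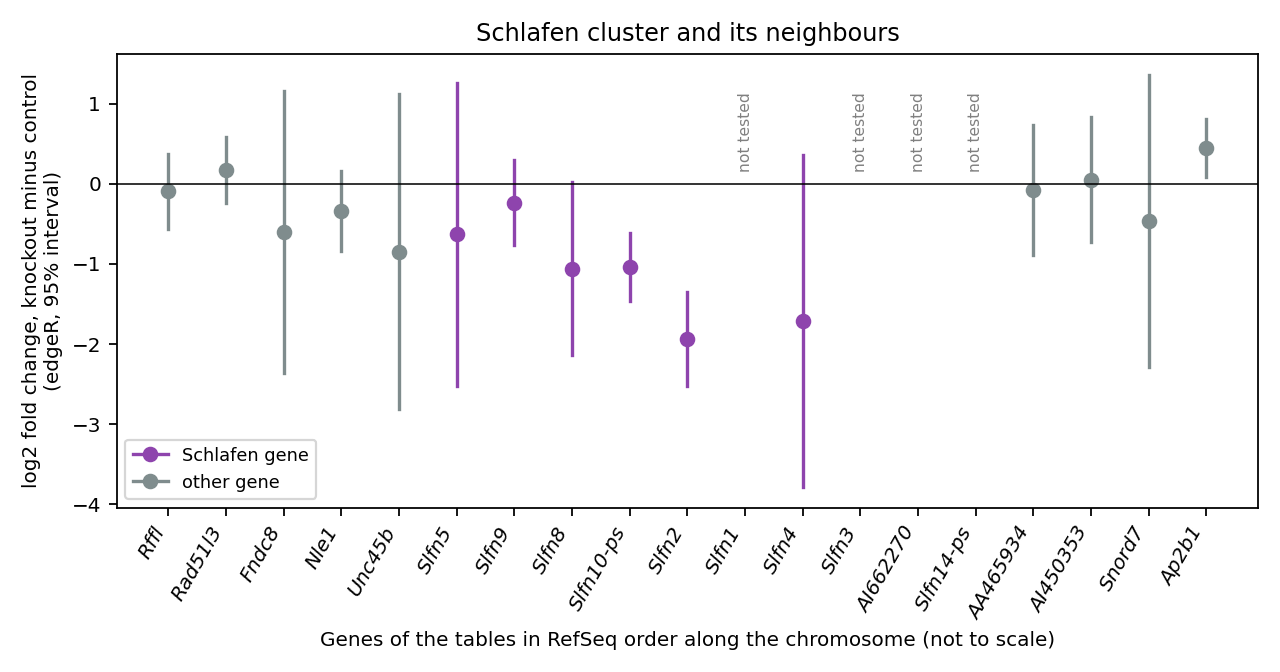
Log2 fold change, knockout minus control, of the Schlafen cluster with 5 measured genes on the side of Slfn5 and 4 on the other, in RefSeq gene order on chromosome 11. Points are edgeR estimates, bars are 95% intervals, and purple marks Schlafen genes. Genes that reached the minimum count in too few libraries are written as not tested. The intervals of Slfn2 and Slfn10-ps lie wholly below 0, and those of Slfn5, Slfn9, Slfn8 and Slfn4 reach above it.

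Interferon-stimulated genes, the class to which several Schlafen genes belong, were not called by edgeR. Their summed level over 36 genes was 1048 and 561 CPM in the libraries labelled knockout, against 986 and 1105 CPM in the controls. The sum lay below both controls in knockout replicate 2 and between them in knockout replicate 1. Of the 36 genes tested, edgeR called 0, 8 had an unadjusted p under 0.05 (7.47% over all transcripts), DESeq2 called 2 lower (0.528% over all) and limma-trend on log2(RPKM + 1) called 1 lower (0.310% over all). Fold changes were negative in 30 of them, with a median of -0.40, against -0.01 over all transcripts tested. In 13 of them both libraries labelled knockout were lower than both controls, where the background is 17.0%, and in 1 both were higher, where it is 19.1%.

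The 4 genes of that list with the smallest p were all lower in both libraries labelled knockout. Mx1, a GTPase gene, stood at 2.38 and 1.61 CPM under the knockout label, against 4.66 and 7.91 CPM in the controls (edgeR adjusted p = 0.239). Oas1g, of the oligoadenylate synthetase family, stood at 1.12 and 0.323 CPM against 3.90 and 4.50 CPM (edgeR adjusted p = 0.242). Oasl2 and Parp14 had log2 fold changes of -1.43 and -0.77. The summed level of this list moves with knockout replicate 2, the library with Xist RNA, and its part in the Slfn2 difference was not tested.

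Genes that carry the interferon signal did not pass the test. Of the 14 tested genes for type I and III interferons, their receptors and signalling, edgeR, DESeq2 and limma-trend called 0. An unadjusted edgeR p under 0.05 was found in 2 of them (7.47% over all transcripts). In 2 of the 14 both libraries labelled knockout were lower than both controls, where the background is 17.0%. In 3 both were higher, where it is 19.1%. Irf1, a transcription factor induced by interferon gamma, stood at 31.6 and 26.5 CPM under the knockout label, against 41.5 and 60.6 CPM in the controls (edgeR adjusted p = 0.325). Il10rb, a receptor chain used by type III interferons, stood at 60.6 and 60.7 CPM against 35.9 and 45.0 CPM (edgeR adjusted p = 0.362). Ifnar1 and Irf3 had log2 fold changes of 0.22 and -0.21. Of 7 genes tested for interferon gamma signalling, edgeR, DESeq2 and limma-trend called 0, and 2 had an unadjusted p under 0.05 (7.47% over all transcripts). Irf1 belongs to both lists and is counted in each. Of the 7, 2 were lower without overlap (17.0% over all transcripts) and 1 was higher (19.1% over all). Ifngr1, a chain of the interferon gamma receptor, stood at 212 and 147 CPM under the knockout label, against 112 and 120 CPM in the controls (edgeR adjusted p = 0.469).

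Genes of transfer RNA cleavage did not pass the test either. In mouse T cells, Slfn2 shields transfer RNA from cleavage by angiogenin. Of 13 genes for transfer RNA cleavage and protection, edgeR called 0, 0 had an unadjusted p under 0.05, and DESeq2 and limma-trend called 0. Ang, the angiogenin gene, stood at 1.31 and 1.84 CPM under the knockout label, against 0.874 and 0.892 CPM in the controls (edgeR adjusted p = 0.819). Rnase4, Elac2 and Elac1 had log2 fold changes of 0.81, 0.30 and 0.39. The median of the list was 0.16.

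Cycle entry was examined because Slfn1 and Slfn2 are linked to quiescence. Of 21 genes for cycle entry and quiescence, edgeR called 0, 5 had an unadjusted p under 0.05 (7.47% over all transcripts), DESeq2 called 1 higher (1.14% over all) and limma-trend called 0. Fold changes were positive in 15 genes, with a median of 0.21. Ccnd1, the cyclin D1 gene, stood at 1823 and 1797 CPM under the knockout label, against 1000.1 and 961 CPM in the controls (edgeR adjusted p = 0.218). Ccnb1, Top2a and Cdkn2b had log2 fold changes of 0.70, 0.42 and 0.38. In 10 of the 21 both libraries labelled knockout were higher than both controls, where the background is 19.1%, and in 3 both were lower, where it is 17.0%.

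Since Slfn2 is best known from immune cells, markers of other cells that might be in such a culture were summed. T cell markers, 10 genes, summed to 11.01 and 12.1 CPM in the libraries labelled knockout, against 13.9 and 11.1 CPM in the controls. Most of that sum came from Cd247 and Lck, while Cd3e stood at 0.402 and 1.10 CPM against 0.984 and 1.14 CPM. Macrophage and myeloid markers, 12 genes, summed to 129 and 216 CPM in the libraries labelled knockout, against 168 and 149.6 CPM in the controls, and Cd14 made up most of it. Ptprc, the pan-leukocyte gene for CD45, stood at 0.295 and 0.516 CPM under the knockout label, against 0.802 and 0.405 CPM in the controls. Cd68 stood at 16.2 and 3.93 CPM against 7.36 and 10.8 CPM. Fcer1g, the myeloid gene of smallest p, stood at 0.0804 and 0.129 CPM against 0.401 and 0.487 CPM, with no overlap and a log2 fold change of -2.05 (edgeR adjusted p = 0.729). Its part in the Slfn2 difference was not tested. None of the 8 T cell genes and 10 myeloid genes tested was called by edgeR, DESeq2 or limma-trend, and 0 had an unadjusted p under 0.05. Natural killer markers summed to 0.857 and 1.94 CPM against 2.73 and 1.30 CPM, and B cell markers to 0.455 and 1.97 CPM against 2.62 and 0.608 CPM.

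Fibroblast markers, taken as a sum, were lower in both libraries labelled knockout. The 11 genes summed to 11.4 and 12.8 CPM in the libraries labelled knockout, against 27.4 and 23.7 CPM in the controls, and all 9 tested had negative fold changes. EdgeR called 0 of them, 1 had an unadjusted p under 0.05 (7.47% over all transcripts), and DESeq2 and limma-trend each called 1 lower (0.528% and 0.310% over all). Both libraries labelled knockout were below both controls in 3 of the 9, where the background is 17.0%, and the groups overlapped in the other 6. The gene with the smallest p was Sparc, a secreted matrix protein, at 4.53 and 3.48 CPM under the knockout label, against 12.0 and 13.1 CPM in the controls (edgeR adjusted p = 0.061). Without Sparc the list summed to 6.83 and 9.29 CPM in the libraries labelled knockout, against 15.4 and 10.7 CPM in the controls. At most 1 of the 11 genes was at 0 in any library. The part of the fibroblast markers in the Slfn2 difference was not tested. Endothelial markers summed to 2.65 and 6.64 CPM against 9.36 and 3.37 CPM, acinar markers to 2.65 and 3.48 CPM against 4.37 and 2.31 CPM, and endocrine markers to 0.643 and 1.23 CPM against 1.93 and 0.851 CPM. Ductal markers, 13 genes, summed to 16854 and 13610 CPM in the libraries labelled knockout, against 12946 and 15442 CPM in the controls. Within that list Sox9, from which the Cre is driven, stood at 52.3 and 44.3 CPM under the knockout label, against 18.0 and 21.4 CPM in the controls (edgeR adjusted p = 0.0521). Muc1, a mucin gene, stood at 1.79 and 7.35 CPM against 22.7 and 19.2 CPM (edgeR adjusted p = 0.303), and Cftr, a chloride channel gene, at 13.1 and 22.9 CPM against 33.6 and 35.1 CPM (edgeR adjusted p = 0.380). Among the 13, 4 were lower and 4 higher without overlap, where the background is 17.0% and 19.1%. DESeq2 called 1 higher and 1 lower (1.14% and 0.528% over all), and so did limma-trend (0.597% and 0.310% over all).

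**Figure D4:**
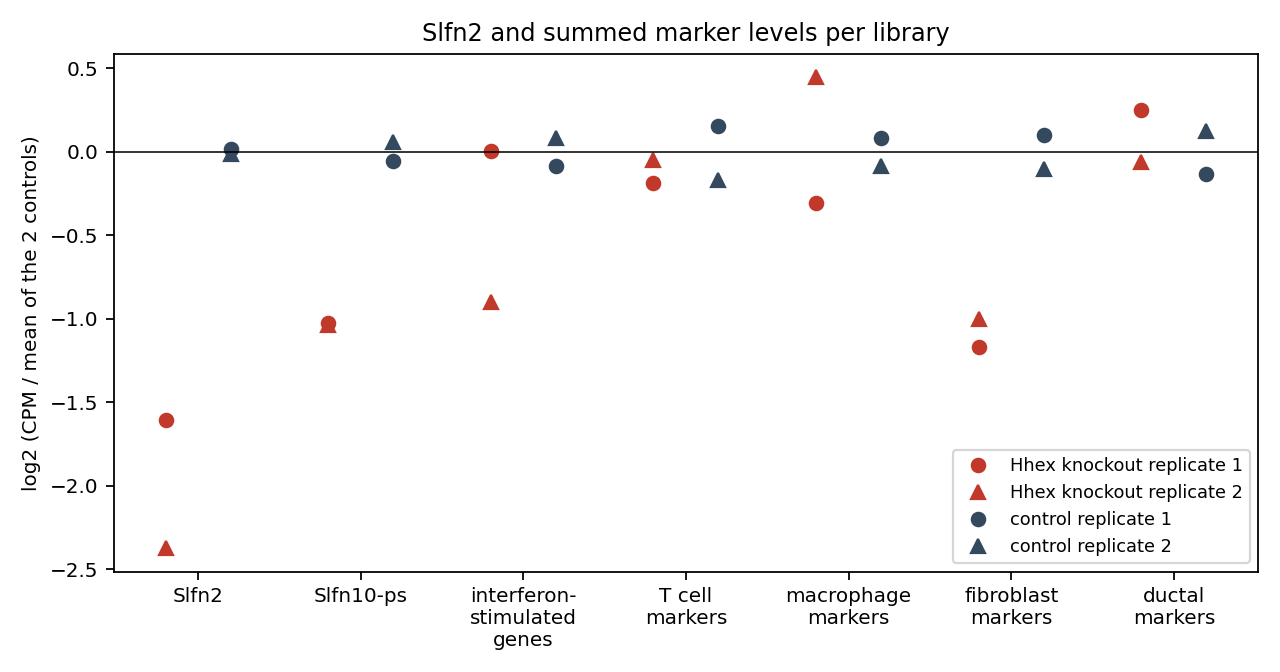
Level in each library relative to the mean of the 2 controls (log2 of the CPM ratio), for Slfn2, Slfn10-ps and the summed CPM of 5 gene lists. Red symbols are libraries labelled knockout and dark symbols controls, circles are replicate 1 and triangles replicate 2. Slfn2 stands at -1.61 and -2.38 in the libraries labelled knockout, the fibroblast markers lie below both controls in both of them, and interferon-stimulated genes do so in replicate 2 alone, at -0.90.

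The genes whose profile over the 4 libraries lay closest to that of Slfn2 were Tmem82, Sparc, Slc28a3, Gbp8 and Gpr161. Likeness was the root mean square difference of centred log2 CPM, over 10193 other symbols with a mean of at least 5 CPM, and with only 4 libraries it is a description. Tmem82, a transmembrane protein gene, was closest, at a distance of 0.14 and with 2.71 and 1.68 CPM in the libraries labelled knockout, against 9.51 and 10.7 CPM in the controls. Slc28a3, a nucleoside transporter gene, stood at 4.26 and 1.74 CPM against 14.1 and 11.8 CPM. Gbp8, an interferon-inducible guanylate-binding protein gene, stood at 2.60 and 2.13 CPM against 10.9 and 12.1 CPM. Gpr161, a ciliary receptor of the Hedgehog pathway, stood at 4.31 and 3.84 CPM against 17.2 and 14.0 CPM. All 5 were chosen for their likeness to Slfn2, so their lower level under the knockout label follows from the choice and is no result. The profile of Slfn9 was closest to those of Ubr1, Fahd2a, Myo19, Asap2 and Sssca1, whose log2 fold changes lay between -0.26 and -0.21.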

How the data were processed

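Libraries were made from total RNA of cultured ductal cells with an Illumina TruSeq kit, per the labels' protocols. The authors deposited whole-number counts and RPKM values per RefSeq transcript, on build mm9 and with edgeR, per the submitters' processing notes; the aligner, the counter and the treatment of reads with several matches are not given in the sources used here. RPKM values are scaled by transcript length and library size, as deposited. Replicates carry separate identifiers in their titles, and p-values measure the spread between these samples.

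Counts of 28644 transcripts were fitted with edgeR 4.0.16 in R 4.3.3 (quasi-likelihood test, TMM factors, filterByExpr with a minimum count of 10 and a minimum total of 15), knockout against control with no covariate, and p-values were adjusted by Benjamini-Hochberg over the 20949 transcripts tested. A call is an adjusted p under 0.05. Of all transcripts, 27 were called higher and 10 lower, against 0 higher and 5 lower with library totals or upper-quartile factors. DESeq2 1.42.0 on counts and limma 3.58.1 on log2(RPKM + 1) were alternatives, with other scalings, filters, row rules and each library left out. For a single value, an exact permutation test of 2 against 2 libraries cannot go below p = 0.333. Counting intervals are exact Poisson intervals at 95%.

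Named were all members, Hhex, other Schlafen genes, up to 4 genes of smallest p per list, 5 genes on each side of the cluster (1 of them is not reported here), and the 5 genes closest to Slfn2 and to Slfn9; Sparc, Cd247, Lck, Cd14, Ptprc, Krt19, Sox9 and the sex-linked genes stand as markers. The members and lists were chosen with earlier results of these data known.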

Additional observations from a re-analysis of the deposited data

How the results depend on the processing

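The number of transcripts called over the whole table, 37, depended strongly on the processing. It was 5 with library totals, 5 with upper-quartile factors, 79 with no filter, 4 with at least 1 CPM in 2 libraries, 270 in edgeR's exact test, 84 in its robust form and 306 in DESeq2. It was 5 with counts summed per symbol, 2 with 1 row per symbol, and 190 and 221 in limma-trend with 1 and 0.1 added to RPKM. Leaving out each library in turn gave 13 to 1735 calls, the lowest without control replicate 1 and the highest without knockout replicate 2, and 1682 without knockout replicate 1. No transcript was called higher with library totals, upper-quartile factors, the CPM filter or 1 row per symbol, against 27 higher and 10 lower in the fit reported.

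The log2 fold change of Slfn2 passed the threshold with no filter (-1.94, adjusted p = 0.0129), in edgeR's exact test (-1.94, adjusted p = 9.4e-09) and robust form (-1.94, adjusted p = 0.0341), and in DESeq2 (-1.91, adjusted p = 2.122e-10). It also passed in limma-trend with 1 added (-1.84, adjusted p = 0.000918) and 0.1 added (-1.91, adjusted p = 0.000331), and without X and Y genes (-1.93, adjusted p = 0.0478). Leaving out each library gave -2.40 to -1.62. Calculating TMM before the filter, chosen after seeing the data, gave 26 calls and an adjusted p of 0.0805 for Slfn2. The causes of these shifts were not tested.

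Slfn5 turned to 0.45 without control replicate 1, in a range of -1.32 to 0.45. Slfn4, Slfn8 and Slfn9 stayed negative and not called under every alternative that gave a value. The unadjusted edgeR p of Slfn8 was 0.0531 in the fit reported. It was 0.0233 with counts summed per symbol, 0.0475 with 1 row per symbol and 0.0494 with TMM before the filter. Under the other alternatives with all 4 libraries it stayed above 0.05. Slfn4 and Slfn5 had no value under the CPM filter. Slfn1 and Slfn3 reached the minimum count in too few libraries to be tested. Slfn4 rests on 7 to 25 counts per library. No paired analysis was possible because the labels do not match any control library to a knockout library by litter, day or batch number.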
